A study of Homo sapiens with 18 samples.

Results

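The genes described here make up the p16, RB and D-cyclin kinase axis of 2 head and neck squamous carcinoma lines. They were chosen by symbol: the INK4 inhibitors CDKN2A, CDKN2B and CDKN2C, the pocket proteins RB1, RBL1 and RBL2, the kinases CDK4 and CDK6, and the cyclins CCND2 and CCND3. All 10 were among the 41120 symbols of the deposited count table. Of these symbols 12291, with 9 of the 10 genes, passed the filter on low counts, and CCND2 did not.

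FaDu (titled FADU-hfm, HPV-negative) and SCC154 (titled SCC154-hfm, HPV-positive) are established human squamous carcinoma lines, and both carried the same hypoxia-fate reporter, by which a cell that has met low oxygen turns from DsRed to GFP and stays green. Cells were grown as unattached spheroids in medium with serum, loosened with trypsin and sorted into DsRed-positive (non-hypoxic) and GFP-positive (post-hypoxic) cells, which were then kept in culture and passaged before RNA was taken. Of the 18 libraries 4 came from non-hypoxic FaDu cells, 5 from post-hypoxic FaDu cells, 5 from non-hypoxic SCC154 cells and 4 from post-hypoxic SCC154 cells. Each status of HPV was represented by 1 line, so that HPV and every other difference between FaDu and SCC154 cannot be told apart, and no viral gene was analysed here.

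In the cell cycle, D-type cyclins switch on CDK4 and CDK6, which phosphorylate RB1 and its relatives p107 (made from RBL1) and p130 (RBL2). The phosphorylated pocket proteins let go of E2F transcription factors, and genes for DNA replication are then transcribed. INK4 proteins bind CDK4 and CDK6 and keep the D cyclins off, while the E7 protein of high-risk HPV binds the pocket proteins themselves, and strong p16 staining is used in oropharyngeal carcinoma as a surrogate sign of HPV.

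Levels are given in CPM, the count of 3′ tags of a gene scaled to the size of its library with TMM factors. A tag marks the end of a polyadenylated transcript, so that a level does not grow with gene length, though it depends on the annotated 3′ end. Totals ran from 1654719 to 2503573 counts per library, and 1 CPM stood for 1.68 to 2.45 counts. All 10 squamous epithelial markers looked at (KRT5, KRT14, TP63, CDH1 and others) passed the filter, with a summed level of 1830 to 2550 CPM per library. None of the 6 fibroblast, 4 endothelial and 5 immune markers passed it, and no library had a summed level above 5.77 CPM for any of these lists. A gene can pass the filter through 1 line alone, and the squamous markers were not alike in the lines. KRT5 and KRT14 had 195 and 23.4 CPM in non-hypoxic FaDu but 23.3 and 3.26 CPM in non-hypoxic SCC154. KRT6A and CDH1 were among those that went the other way, at 79.9 and 85.2 CPM in FaDu against 429 and 187 CPM. Some libraries stood apart within their group: FaDu replicates 3 and 4 deviated together (r = 0.216 and 0.242 across genes) and against replicate 1 (r = -0.301 and -0.433), and both SCC154 libraries numbered 3 had the fewest counts of their groups.

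Of the genes with windows of 300 bases around an annotated start (RefSeq, GRCh38.p14; 250 bases before and 50 after), RBL1 was the only one that held an E2F-type motif. The search took TTTCCCGC, TTTGGCGC, TTTCGCGC and TTTGCCGC on both strands; the 2 matches found do not overlap. Of 35116 such windows over all genes, 1164 (3.31%) held 1 or more of them. Windows were found for 9 of the 10 genes, CCND2 being the exception, and the single RB1 window lay at a start inside the gene. The 150 bases upstream of the RBL1 start are shown because of these matches (chr20:37095998-37096147, minus strand, capitals marking TTTCGCGC and TTTGGCGC, which begin 26 and 16 bases before the start). Those upstream of the more distant CDKN2A start are shown because CDKN2A had the smallest adjusted p of the 10 genes between the lines (chr9:21995325-21995474, minus strand, no match). The other CDKN2A window, at the start at chr9:21974857, also held no match and is not printed. The starts were not assigned to p16 here, so that the printed sequence is not shown to be its promoter.
RBL1: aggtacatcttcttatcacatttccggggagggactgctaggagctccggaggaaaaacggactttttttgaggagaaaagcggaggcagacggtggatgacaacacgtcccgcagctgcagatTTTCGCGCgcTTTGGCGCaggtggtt
CDKN2A: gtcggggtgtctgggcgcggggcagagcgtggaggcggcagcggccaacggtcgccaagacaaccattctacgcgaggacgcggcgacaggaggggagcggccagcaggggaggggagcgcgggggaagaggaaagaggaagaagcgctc
A match is a run of letters and not a shown binding site, and its absence says only that these letters are not in the window.

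CDKN2A, CDKN2B, RBL1 and RBL2 were higher in SCC154 than in FaDu, and CDK4 and CCND3 were lower, in both the non-hypoxic and the post-hypoxic cells. In the non-hypoxic cells 6 of the 9 tested genes passed an adjusted p of 0.05 (quasi-likelihood test of edgeR, p adjusted by Benjamini-Hochberg over all 12291 genes), 4 of them higher and 2 lower in SCC154. The lines were far apart as a whole, since 68.9% of all genes tested passed in the same comparison (34.5% higher, 34.5% lower), so that this share of the 9 genes was near the background. In the post-hypoxic cells, which are other libraries, 8 of 9 passed, 5 higher and 3 lower, against 69.7% of all genes tested (34.8% higher, 34.9% lower). The median log2 fold change of the 9 genes was 0.37 in the non-hypoxic and 0.47 in the post-hypoxic cells, beside -0.01 and 0.01 over all genes tested. Nothing states that the replicates were separate cultures, and every p-value is therefore relative to a spread that may be technical.

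**Figure D1:**
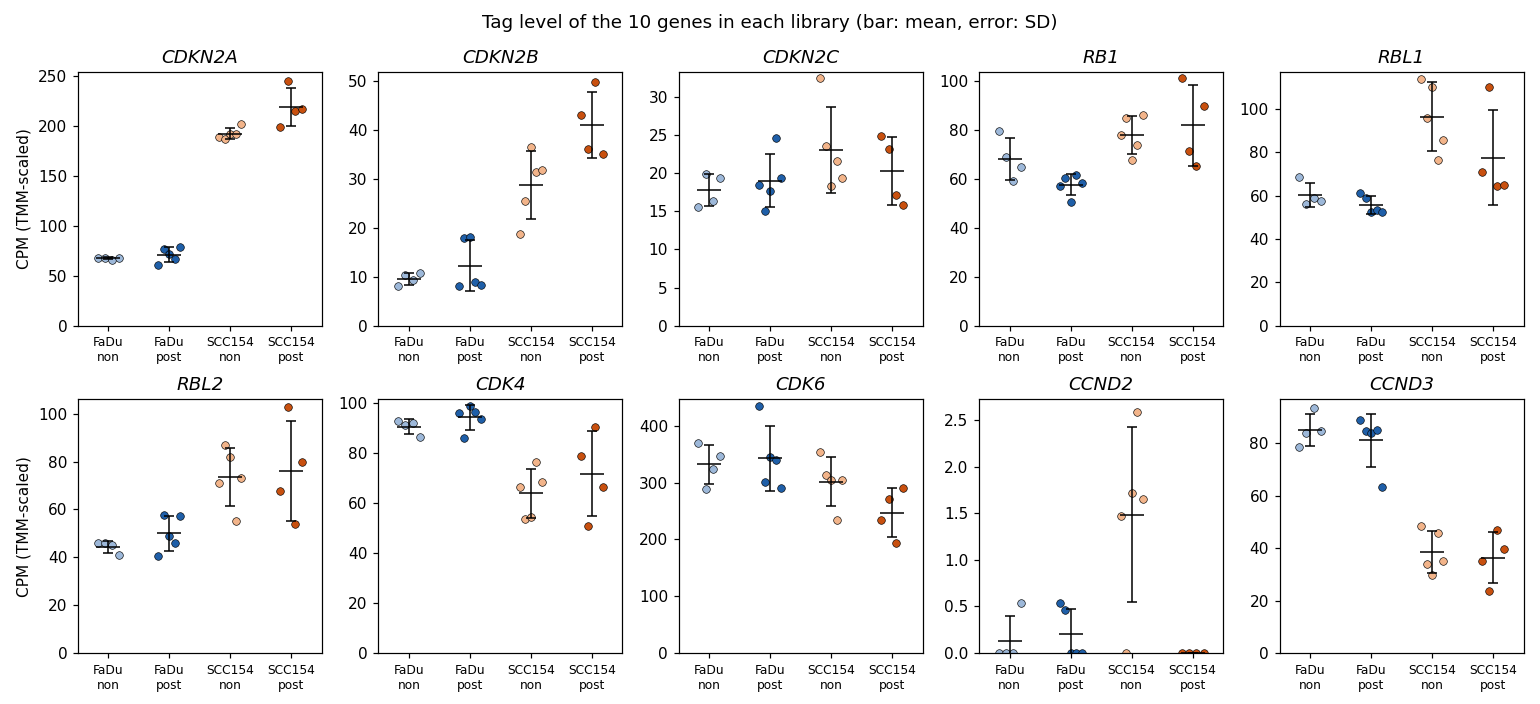
CPM (vertical axes, each from 0) of the 10 genes in the 18 libraries, 1 point per library, by line and sorted fraction (non: non-hypoxic, post: post-hypoxic), with the mean as a bar and the SD as the error. CDKN2A ran from 61.3 to 79.2 CPM in FaDu and from 187 to 245 CPM in SCC154, and CCND3 from 63.5 to 93.4 CPM in FaDu and from 23.7 to 48.6 CPM in SCC154.

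CDKN2A (chr9:21967753-21995301, minus strand; hg38, GENCODE release 29) encodes p16, and from another first exon and reading frame ARF, which protects p53 from MDM2. Its level was 68.1, 67.6, 66.0 and 68.1 CPM in the non-hypoxic FaDu libraries and 61.3, 76.9, 71.4, 66.9 and 79.2 CPM in the post-hypoxic ones. The non-hypoxic SCC154 libraries stood at 189, 187, 192, 192 and 202 CPM, and the post-hypoxic ones at 199, 245, 215 and 217 CPM. Every SCC154 library was thus above every FaDu library, and FaDu itself was not without the transcript, with 113 to 181 counts per post-hypoxic library. The log2 fold change of SCC154 over FaDu was 1.51 ± 0.10 (SE; adjusted p = 3.58e-12, edgeR) in the non-hypoxic cells, a 2.85-fold difference. It was 1.62 ± 0.09 (adjusted p = 4.58e-13, edgeR) in the post-hypoxic cells. Of the 10 coding CDKN2A transcripts of the annotation, 8 end in the same last exon, which p16 and ARF transcripts share, so that a 3′ tag cannot tell them apart.

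CDKN2B (chr9:22002903-22009363, minus strand), the neighbour of CDKN2A, encodes the INK4 inhibitor p15. It had 8.04, 10.4, 9.43 and 10.7 CPM in non-hypoxic FaDu, and 8.13, 17.9, 18.1, 9.03 and 8.32 CPM in post-hypoxic FaDu. In SCC154 the levels were 18.7, 25.5, 36.6, 31.5 and 31.8 CPM in the non-hypoxic and 43.2, 36.2, 49.8 and 35.2 CPM in the post-hypoxic libraries. The lowest SCC154 library was above the highest FaDu library, but 2 post-hypoxic FaDu libraries (replicates 2 and 3) came within 1 CPM of it. The log2 fold change was 1.57 ± 0.25 (adjusted p = 7.58e-06, edgeR) in the non-hypoxic cells and 1.74 ± 0.23 (adjusted p = 3.59e-07, edgeR) in the post-hypoxic cells. The antisense RNA CDKN2B-AS1 covers the whole gene on the other strand. It too was higher in SCC154, by 1.09 ± 0.26 and 0.69 ± 0.24 on the log2 scale (adjusted p = 0.000742 and 0.016, edgeR), at 16.2 against 7.46 CPM in the non-hypoxic cells. Whether reads were counted by strand is not given in the sources used here, and without strand the reads of this pair cannot be told apart.

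CDKN2C (chr1:50960745-50974633, plus strand), which encodes the INK4 inhibitor p18, did not pass the test in either comparison. Its mean was 17.8 ± 2.13 (SD, n = 4) CPM in non-hypoxic FaDu, 19.0 ± 3.51 (n = 5) in post-hypoxic FaDu, 23.0 ± 5.61 (n = 5) in non-hypoxic SCC154 and 20.2 ± 4.44 (n = 4) in post-hypoxic SCC154. The groups overlapped. The log2 fold change between the lines was 0.37 with a 95% interval of -0.03 to 0.77 in the non-hypoxic cells, and 0.08 with an interval of -0.32 to 0.48 in the post-hypoxic cells.

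As a description, and without the fourth INK4 gene CDKN2D, CDKN2A gave 71.1% ± 2.42 (SD, n = 4) of the tags of the 3 INK4 genes in non-hypoxic FaDu and 78.8% ± 0.777 (n = 5) in non-hypoxic SCC154. Tags of the INK4 genes per tag of CDK4 and CDK6 together came to 0.226 ± 0.0242 (n = 4) and 0.240 ± 0.0474 (n = 5) in non-hypoxic and post-hypoxic FaDu. In SCC154 the same ratio was 0.674 ± 0.0799 (n = 5) and 0.885 ± 0.105 (n = 4). With CDKN2D counted too, it was 0.290 ± 0.0356 (n = 4) and 0.320 ± 0.0659 (n = 5) in FaDu, and 0.953 ± 0.196 (n = 5) and 1.27 ± 0.221 (n = 4) in SCC154.

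RB1 (chr13:48303726-48599436, plus strand) encodes the pocket protein that E7 is best known to bind. It had 79.4, 68.9, 59.1 and 64.9 CPM in non-hypoxic FaDu and 77.6, 84.6, 67.5, 73.8 and 85.8 CPM in non-hypoxic SCC154, and these groups overlapped. Its post-hypoxic levels were 56.9, 60.4, 50.6, 61.6 and 58.2 CPM in FaDu and 101, 71.2, 65.3 and 89.8 CPM in SCC154, with no overlap. The line difference passed in the post-hypoxic cells (log2 fold change 0.51 ± 0.13, adjusted p = 0.00142, edgeR) and not in the non-hypoxic cells (0.19, 95% interval -0.08 to 0.47). The difference between these differences (the interaction) was 0.32 ± 0.19 and did not pass (adjusted p = 0.593, edgeR). The lines were thus not shown to differ more in the post-hypoxic than in the non-hypoxic cells.

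RBL1 (chr20:36996349-37095995, minus strand), whose product p107 works mainly with E2F4 and E2F5, had 68.6, 56.3, 59.1 and 57.4 CPM in non-hypoxic FaDu and 61.3, 59.1, 52.4, 53.4 and 52.5 CPM in post-hypoxic FaDu. In SCC154 it had 114, 95.7, 110, 76.4 and 85.8 CPM in the non-hypoxic cells, all above FaDu. Its post-hypoxic levels there were 70.9, 110, 64.5 and 65.0 CPM, so that replicate 3 alone stood high. All 4 were above post-hypoxic FaDu, whose highest library had 61.3 CPM, but 2 were below the highest non-hypoxic FaDu library. The log2 fold change was 0.67 ± 0.15 (adjusted p = 0.000421, edgeR) in the non-hypoxic and 0.47 ± 0.15 (adjusted p = 0.00888, edgeR) in the post-hypoxic cells. Without post-hypoxic SCC154 replicate 3 the latter was 0.265 and did not pass (adjusted p = 0.0837, edgeR); its adjusted p ran from 0.00103 to 0.0837 over 28 other settings, of which 25 kept it under 0.05.

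RBL2 (chr16:53433977-53491649, plus strand) makes p130, the pocket protein of resting cells, which holds the DREAM repressor complex together. Its non-hypoxic levels were 45.9, 45.9, 45.2 and 40.8 CPM in FaDu and 71.2, 87.0, 81.8, 55.2 and 73.0 CPM in SCC154, with no overlap. In the post-hypoxic cells FaDu ran from 40.7 to 57.7 CPM and SCC154 stood at 67.6, 103, 53.8 and 79.9 CPM, where replicate 4 lay within the FaDu range. SCC154 exceeded FaDu by a log2 fold change of 0.72 ± 0.17 (adjusted p = 0.000515, edgeR) and 0.59 ± 0.16 (adjusted p = 0.00252, edgeR). The last bases of RBL2 overlap those of AKTIP on the other strand by 610 bases. AKTIP was also higher in SCC154 (log2 fold change 1.00 ± 0.27, adjusted p = 0.00201, edgeR, in the non-hypoxic cells), at 6.80 CPM in FaDu and 13.8 CPM in SCC154. Its part in the RBL2 counts was not tested.

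CDK4 (chr12:57747727-57756013, minus strand), the first partner of the D cyclins, had 92.7, 91.4, 91.9 and 86.4 CPM in non-hypoxic FaDu against 66.3, 53.8, 54.3, 76.4 and 68.5 CPM in non-hypoxic SCC154. Post-hypoxic FaDu ran from 86.1 to 98.9 CPM, and post-hypoxic SCC154 had 79.0, 51.0, 90.6 and 66.4 CPM, of which replicate 4 was within the FaDu range. The log2 fold change was -0.50 ± 0.14 (adjusted p = 0.00231, edgeR) in the non-hypoxic cells. It was -0.38 ± 0.13 (adjusted p = 0.0149, edgeR) in the post-hypoxic cells. That second difference did not pass without post-hypoxic SCC154 replicate 3 (-0.257, adjusted p = 0.0743, edgeR) or replicate 5 (-0.337, adjusted p = 0.05 when rounded, edgeR), and its adjusted p ran from 0.00277 to 0.0823 over 28 settings. The 3′ end of CDK4 overlaps that of TSPAN31, which had 8.06 CPM in non-hypoxic SCC154 and 7.47 CPM in non-hypoxic FaDu.

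CDK6 (chr7:92604921-92836594, minus strand), the relative of CDK4 that shares its D cyclins, had the most tags of the 10 genes. It had 370, 289, 324 and 347 CPM in non-hypoxic FaDu and 354, 313, 304, 234 and 305 CPM in non-hypoxic SCC154, groups that overlapped (log2 fold change -0.14, 95% interval -0.41 to 0.13). In the post-hypoxic cells it had 435, 301, 346, 340 and 291 CPM in FaDu and 234, 272, 193 and 290 CPM in SCC154. Here the line difference passed, at -0.47 ± 0.13 (adjusted p = 0.0033, edgeR), although the highest SCC154 library and the lowest FaDu library were about level. The interaction was -0.33 ± 0.19 and did not pass (adjusted p = 0.572, edgeR).

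CCND3 (chr6:41934933-42050357, minus strand), the cyclin D3 gene, was lower in every SCC154 library than in every FaDu library. FaDu had 78.5, 84.1, 93.4 and 84.8 CPM in the non-hypoxic cells and 88.9, 84.7, 84.0, 85.0 and 63.5 CPM in the post-hypoxic cells. SCC154 had 48.6, 34.1, 29.7, 45.7 and 35.1 CPM and 35.0, 23.7, 46.9 and 39.7 CPM. Between the lines the log2 fold change was -1.13 ± 0.16 (adjusted p = 1.5e-06, edgeR) in the non-hypoxic and -1.14 ± 0.17 (adjusted p = 1.83e-06, edgeR) in the post-hypoxic cells, 2.19-fold and 2.21-fold lower. Cyclin D1, whose gene is no member of the set, differed more. CCND1 was at 831 ± 24.1 (SD, n = 4) CPM in non-hypoxic FaDu and at 141 ± 35.5 (n = 5) CPM in non-hypoxic SCC154 (log2 fold change -2.55 ± 0.21, adjusted p = 2.2e-10, edgeR). The share of CCND3 in the tags of the 3 D cyclins was therefore larger in SCC154, at 21.5% ± 2.43 (n = 5) against 9.29% ± 0.629 (n = 4), while its level was lower.

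CCND2 (chr12:4273772-4305350, plus strand), the cyclin D2 gene, was close to undetected. It had 0, 0, 0 and 1 counts in non-hypoxic FaDu and 1, 1, 0, 0 and 0 in post-hypoxic FaDu. In non-hypoxic SCC154 it had 3, 0, 3, 6 and 4 counts, 16 over the group or 1.51 CPM (exact Poisson 95% interval 0.862 to 2.45, counting error only), and in post-hypoxic SCC154 it had 0 counts in all 4 libraries. A count of 0 over those 4 libraries allows up to 0.341 CPM (3 counts over the group), which is below that interval. CCND2 did not pass the filter. With no filter, edgeR gave the difference between the SCC154 fractions an adjusted p of 0.0181, and DESeq2 gave it no adjusted p. Between the non-hypoxic cells of the lines, where SCC154 was higher, the adjusted p was 0.00587 in edgeR with no filter and 0.0407 in DESeq2. The fitted fold changes rest on these few counts and are not given.

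**Figure D2:**
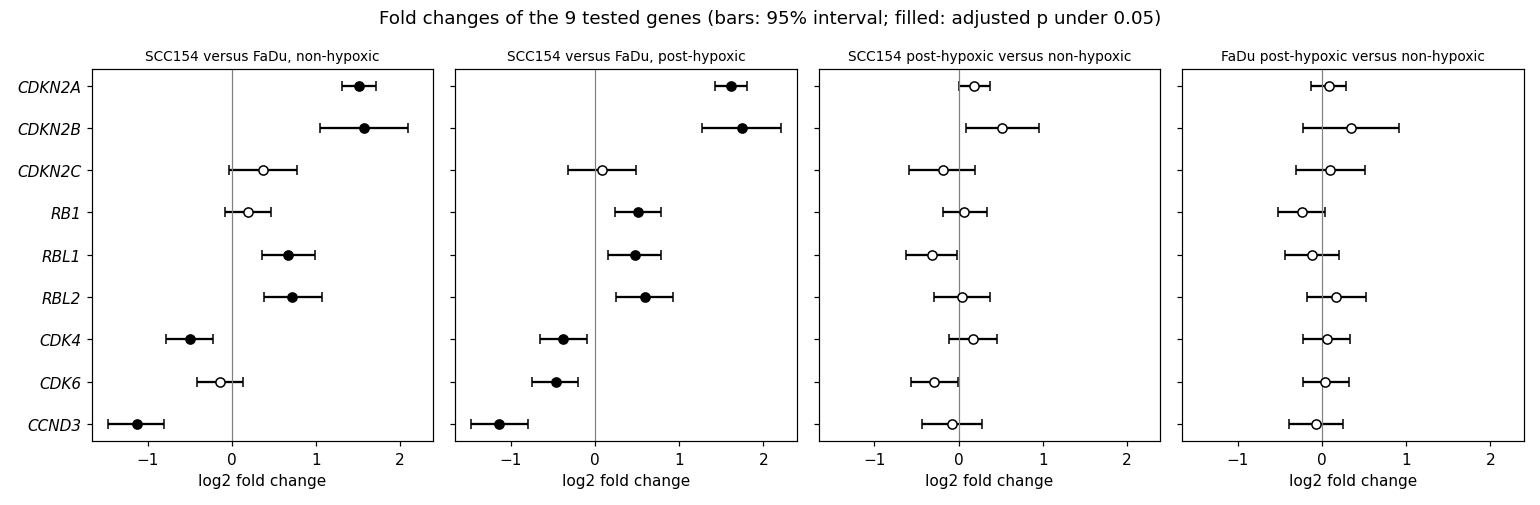
Log2 fold changes (horizontal axes) of the 9 tested genes in 4 comparisons, with 95% intervals as bars and filled points where the adjusted p was under 0.05. Filled points are seen only in the comparisons of the lines, 6 in the non-hypoxic and 8 in the post-hypoxic cells, and CDKN2A and CDKN2B lie farthest to the right in both.

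None of the 9 genes passed the test between post-hypoxic and non-hypoxic cells of SCC154, where 0.757% of all genes tested passed (0.334% higher, 0.423% lower). edgeR, DESeq2 and limma voom each called 0, and 3 genes had an unadjusted p under 0.05 in edgeR, 5 in DESeq2 (CCND2 among those it fitted) and 4 in limma voom. Of the 3 in edgeR, the log2 fold change of CDKN2B was 0.52 ± 0.21 (adjusted p = 0.223), that of RBL1 was -0.32 ± 0.15 (adjusted p = 0.293) and that of CDK6 was -0.29 ± 0.13 (adjusted p = 0.296). CDKN2A was at 192 ± 6.0 (SD, n = 5) CPM in non-hypoxic and 219 ± 19.0 (n = 4) CPM in post-hypoxic SCC154. Its log2 fold change was 0.18 with a 95% interval of 0 to 0.37 (adjusted p = 0.322, edgeR). For RBL1 a single library decided the call: without post-hypoxic replicate 3 its log2 fold change was -0.526 and passed (adjusted p = 0.0478, edgeR). With same-numbered libraries of a line treated as pairs, edgeR called 1052 of all genes tested and again none of the 9.

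In FaDu none of the 9 genes passed between post-hypoxic and non-hypoxic cells, and 0% of all genes tested did in edgeR. DESeq2 and limma voom also called none of the 9, and none had an unadjusted p under 0.05 in edgeR. Nearest to the threshold was RB1, at 68.1 ± 8.58 (SD, n = 4) CPM in the non-hypoxic and 57.5 ± 4.30 (n = 5) CPM in the post-hypoxic cells. Its log2 fold change was -0.24 with a 95% interval of -0.52 to 0.03. For CDKN2A the interval was -0.13 to 0.28. With the replicate number as a block, which treats same-numbered libraries as pairs, 7 genes of the whole table passed and again none of the 9.

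The interaction of line and hypoxic past passed for none of the 9 genes, and for 0.0163% of all genes tested. edgeR, DESeq2 and limma voom called 0 of the 9, and none had an unadjusted p under 0.05 in edgeR. The largest were CDK6 and RB1, given above.

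Over the SCC154 libraries CDK4 was low where the pocket protein genes RBL1 and RBL2 were high. These pairs were picked after their values were seen, among 10 relations computed (5 per line), so that they describe these libraries and no p is given. Over the 9 SCC154 libraries Pearson's r of CDK4 and RBL2 on the log2 scale was -0.920 and Spearman's rho -0.933. It was -0.830 without the 2 libraries farthest from the median of CDK4, and -0.971 within the groups. For CDK4 and RBL1 r was -0.772 and rho -0.750, with -0.626 without the 2 farthest libraries and -0.765 within the groups. For CDK4 and CCND3 r was 0.741 and rho 0.617, with 0.513 without the 2 farthest libraries. The total count of the library moved with these levels. For CDK4 and the total r was 0.851 and rho 0.900 (0.779 without the 2 farthest), and for RBL1 and the total r was -0.792 and rho -0.783 (-0.794 without the 2 farthest). In the 9 FaDu libraries RBL1 and the total had an r of -0.511 and a rho of -0.669 (-0.769 without the 2 farthest), the largest of the 5 there. There r was -0.120 for CDK4 and RBL2, -0.294 for CDK4 and RBL1, -0.0734 for CDK4 and CCND3 and 0.301 for CDK4 and the total. Whether the relations differ between the lines, and what part the depth has in them, was not tested.

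**Figure D3:**
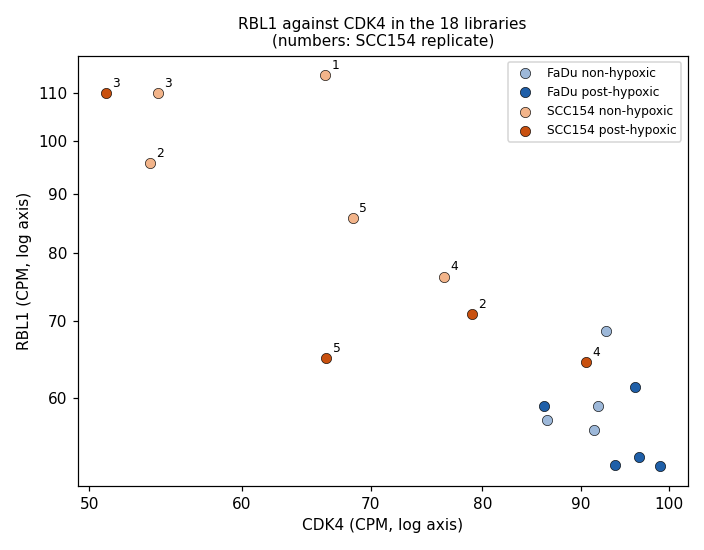
RBL1 against CDK4 in the 18 libraries, both in CPM on log axes, 1 point per library, with the replicate number beside each SCC154 point. The FaDu libraries lie together at 86.1 to 98.9 CPM of CDK4 and 52.4 to 68.6 CPM of RBL1, and the SCC154 libraries spread from 51.0 to 90.6 CPM of CDK4, with both replicates numbered 3 at 110 CPM of RBL1.

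Other genes of the pathway were taken as 9 lists of 106 symbols, of which 102 were tested. Between the lines 28 were higher and 32 lower in the non-hypoxic SCC154 cells, and 27 higher and 36 lower in the post-hypoxic ones. These were 58.8% and 61.8% of the 102, below the 68.9% and 69.7% of all genes tested that passed in the same comparisons (34.5% and 34.8% higher, 34.5% and 34.9% lower), and no list is shown to stand apart from them. The medians over the 102 genes were -0.01 and -0.15 on the log2 scale. In the main edgeR fit none of the 102 passed between post-hypoxic and non-hypoxic cells of SCC154 (22 with an unadjusted p under 0.05), or of FaDu (3 unadjusted). DESeq2 and limma voom called 0 in SCC154. DESeq2 called 1 in FaDu, the thymidine kinase gene TK1, as did edgeR with the replicate block. The interaction passed for none of the 102 in the main edgeR fit and in limma voom (14 and 19 unadjusted) and for TK1 alone in DESeq2. With a replicate block within each line, edgeR called 15 pathway genes within SCC154 (4 higher, 11 lower), beside 1052 of all genes tested. For the interaction that fit called 3 (ARID4A, TK1 and CBX7), beside 224 of all genes tested.

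Among the other CDK inhibitors, 3 of 5 were higher in non-hypoxic and 2 of 5 in post-hypoxic SCC154, and none lower, against 68.9% and 69.7% called over all genes. CDKN1A, which encodes p21, a target of p53, was at 4.35 ± 0.348 (SD, n = 4) CPM in non-hypoxic FaDu and 31.0 ± 7.21 (n = 5) CPM in non-hypoxic SCC154 (log2 fold change 2.83 ± 0.27, adjusted p = 2.05e-09, edgeR). In the post-hypoxic cells FaDu and SCC154 had 3.90 ± 0.787 (n = 5) and 28.1 ± 9.56 (n = 4) CPM. CDKN2D, the fourth INK4 gene (p19), was higher by 1.87 and 1.80 on the log2 scale (adjusted p = 1.56e-06 and 8.32e-07, edgeR). CDKN1C (p57) passed in the non-hypoxic cells alone, at 1.07 (adjusted p = 0.0104, edgeR), against 0.44 in the post-hypoxic cells (adjusted p = 0.265, edgeR).

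Of 12 partner cyclins and kinases 2 were higher and 5 lower in the non-hypoxic SCC154 cells. In the post-hypoxic ones 1 was higher and 6 were lower. That is 58.3% called in both, against 68.9% and 69.7% of all genes. CCND1 was the largest of these differences. CCNE2, a cyclin E that activates CDK2, went the other way, at 64.9 ± 13.5 (SD, n = 5) CPM in non-hypoxic SCC154 against 18.9 ± 7.16 (n = 4) CPM in FaDu (log2 fold change 1.77 ± 0.25, adjusted p = 1.37e-06, edgeR). CCNE1 did not pass, at -0.39 in the non-hypoxic cells with a 95% interval of -0.81 to 0.03.

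The E2F and DP factors, which the pocket proteins hold back, gave 2 higher and 2 lower of 10 in the non-hypoxic SCC154 cells. In the post-hypoxic ones 1 was higher and 1 lower. That is 40.0% and 20.0% called, against 68.9% and 69.7% of all genes. E2F2 was higher, by 1.04 and 1.84 on the log2 scale (adjusted p = 0.000507 and 4.05e-07, edgeR). E2F3 was lower, by a log2 fold change of -1.06 and -1.47 (adjusted p = 2.23e-07 and 2.46e-09, edgeR). E2F1 did not pass, at 0.43 and 0.39 (adjusted p = 0.0596 and 0.0784, edgeR).

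Of 24 E2F target genes, mostly for DNA replication, 5 were higher and 10 lower in non-hypoxic SCC154, and 4 higher and 11 lower in post-hypoxic SCC154. That is 62.5% called in both, against 68.9% and 69.7% of all genes. Their median log2 fold change was -0.16 and -0.31, against -0.01 and 0.01 over all genes tested. TYMS, the thymidylate synthase gene, was at 135 ± 10.8 (SD, n = 4) CPM in non-hypoxic FaDu and 41.4 ± 7.54 (n = 5) CPM in non-hypoxic SCC154 (log2 fold change -1.69 ± 0.17, adjusted p = 4.93e-09, edgeR). GINS2 and MCM7, of the replicative helicase, were lower by log2 fold changes of -1.31 and -1.12 (adjusted p = 9.79e-06 and 2.26e-06, edgeR). RRM2, a subunit of ribonucleotide reductase, was higher by 0.78 (adjusted p = 2.33e-05, edgeR). CCNE1, CCNE2 and CDC25A are in this list as well as among the partner cyclins and kinases. CCNE2, higher by 1.77 (adjusted p = 1.37e-06, edgeR), had the largest difference of this list in the non-hypoxic cells.

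**Figure D4:**
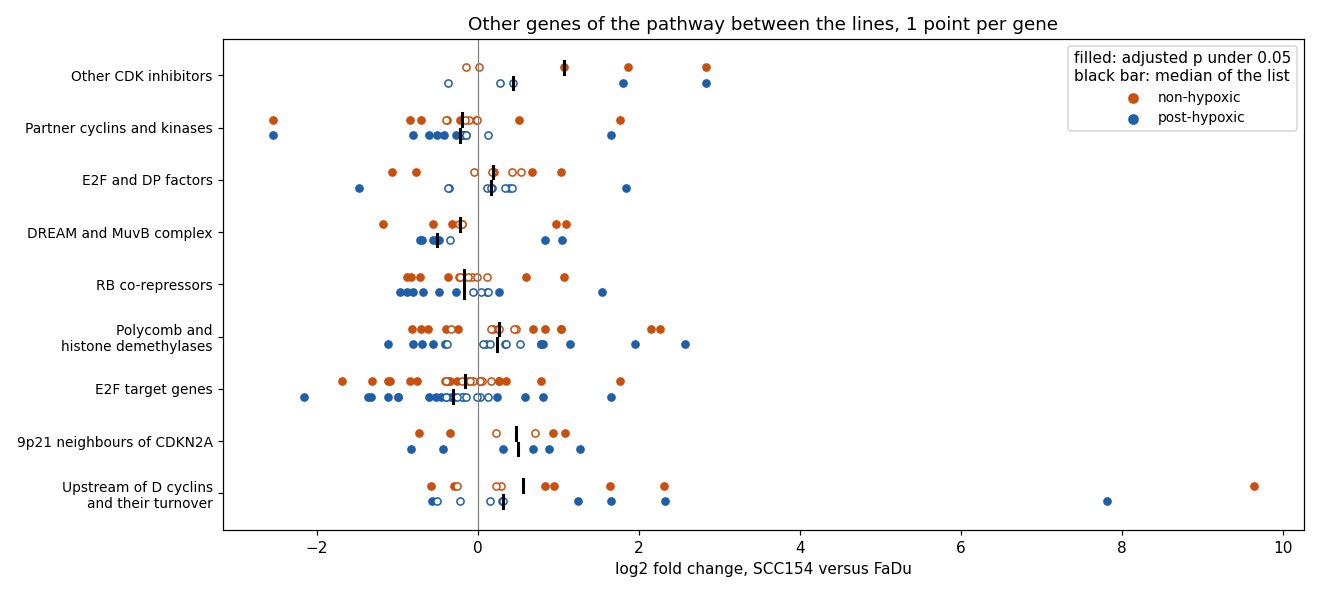
Log2 fold changes of SCC154 over FaDu (horizontal axis) for the genes of 9 pathway lists, 1 point per gene tested, orange for non-hypoxic and blue for post-hypoxic cells, filled where the adjusted p was under 0.05, with the median of each list as a black bar. CDKN1A lies farthest right among the CDK inhibitors at 2.83 and 2.84, CCND1 farthest left of all at -2.55, and ID2, almost uncounted in FaDu, far to the right.

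In the DREAM and MuvB complex, which p130 and p107 join, 2 of 8 tested genes were higher and 3 lower in the non-hypoxic SCC154 cells. In the post-hypoxic ones 2 were higher and 5 lower. That is 62.5% and 87.5% called, against 68.9% and 69.7% of all genes. DYRK1A, the kinase that starts DREAM assembly, was higher by 1.1 and 1.05 on the log2 scale (adjusted p = 3.52e-08 and 6.26e-08, edgeR). FOXM1, which acts with MuvB in late cell cycle, passed in the non-hypoxic cells (log2 fold change -1.18, adjusted p = 1.16e-05, edgeR) and not in the post-hypoxic cells (-0.34, adjusted p = 0.115, edgeR). Of 12 RB co-repressors 2 were higher and 4 lower, and 2 and 6 (6 and 8 of 12 called, against the same shares of all genes). ARID4A, an RB-binding protein, was higher by 1.07 and 1.54 (adjusted p = 7.19e-09 and 8.2e-12, edgeR), and the DNA methyltransferase gene DNMT1 lower by log2 fold changes of -0.88 and -0.97 (adjusted p = 2.65e-07 and 8.57e-08, edgeR).

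Polycomb proteins are known to silence the CDKN2A locus, and histone demethylases such as KDM6B to release it. Of 18 such genes 6 were higher and 5 lower in the non-hypoxic SCC154 cells, and 7 higher and 5 lower in the post-hypoxic ones, a median of 0.26 and 0.25 on the log2 scale. That is 61.1% and 66.7% called, against 68.9% and 69.7% of all genes. BMI1, a Polycomb repressor of CDKN2A, was lower by log2 fold changes of -0.71 and -1.12 (adjusted p = 0.0219 and 0.000359, edgeR). PHC1 and CBX8 of the same complex were higher, by 2.26 and 2.15 in the non-hypoxic cells (adjusted p = 1.38e-07 and 1.12e-05, edgeR). EZH2, the Polycomb methyltransferase, did not pass, at 0.19 and 0.10 (adjusted p = 0.105 and 0.406, edgeR). KDM6A passed in the non-hypoxic cells (0.83, adjusted p = 0.00718, edgeR) and not in the post-hypoxic cells (0.53, adjusted p = 0.0814, edgeR). KDM6B passed in neither, at 0.45 and 0.15 (adjusted p = 0.0883 and 0.57, edgeR).

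The neighbours of CDKN2A on chromosome 9 did not all go its way. Of 6 tested 2 were higher and 2 lower in non-hypoxic SCC154, and 4 higher and 2 lower in post-hypoxic SCC154. That is 66.7% and 100% called, against 68.9% and 69.7% of all genes. ELAVL2 was higher by 0.94 and 0.88 on the log2 scale (adjusted p = 1.07e-08 and 2.15e-08, edgeR), as was CDKN2B-AS1, given above. FOCAD was lower, by log2 fold changes of -0.73 and -0.83 (adjusted p = 0.00213 and 0.00065, edgeR). KLHL9 and IFNE were higher in the post-hypoxic cells alone, by 0.32 and 1.27 (adjusted p = 0.0397 and 0.00635, edgeR). MTAP, a close neighbour of CDKN2A that is often deleted with it in carcinomas, was counted in both lines. It had 110 ± 2.96 (SD, n = 4) CPM in non-hypoxic FaDu and 85.9 ± 10.2 (n = 5) CPM in non-hypoxic SCC154, with log2 fold changes of -0.35 and -0.43 (adjusted p = 0.00383 and 0.000612, edgeR).

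Among genes upstream of the D cyclins or of their turnover, 5 of 10 tested were higher and 2 lower in non-hypoxic SCC154, and 5 higher and 1 lower in post-hypoxic SCC154 (7 and 6 of 10 called, against 68.9% and 69.7% of all genes). ID2, an inhibitor of basic helix-loop-helix factors that also binds RB, had 1 count over the 4 non-hypoxic FaDu libraries and 143 ± 34.0 (SD, n = 5) CPM in non-hypoxic SCC154. Its relative ID1 was at 278 ± 62.2 (n = 4) and 1380 ± 140 (n = 5) CPM (log2 fold change 2.31 ± 0.15, adjusted p = 5.92e-12, edgeR). ETS2, a transcription factor gene, was higher by 1.64 and 1.66 (adjusted p = 2.18e-10 and 8.52e-11, edgeR). Whether any of these genes acts on CDKN2A here was not tested.

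The genes whose 4 group means lay nearest to those of CDKN2A, each centred on its own average on the log2 scale, were H2BC11, NOP53, MFGE8, ASH2L and HS3ST1. They were taken from 9636 tested genes with a mean of at least 10 CPM, by Euclidean distances of 0.0309, 0.042, 0.0445, 0.0469 and 0.0657. NOP53, a nucleolar protein gene, was nearest in level too, with 94.6 and 95.6 CPM in non-hypoxic and post-hypoxic FaDu and 264 and 290 CPM in SCC154. With 4 groups and a large difference between the lines, such nearness describes 4 means and no more.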

How the data were processed

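QuantSeq 3′ tag libraries of sorted, cultured cells were deposited by the authors as whole-number counts per gene symbol in 1 table of 18 libraries. Tools and build per the submitters' processing notes were HISAT2 2.2.1, featureCounts 1.5.1, UMI-tools 1.1.5, DESeq2, Trimmomatic 0.39, FastQC 0.11.9 and hg38. Not given in the sources used here were the annotation, the strand setting and the treatment of multi-mapping reads. Columns were matched to samples by library name, and groups and replicate numbers came from the titles.

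The deposited counts were tested with edgeR 4.0.16 (R 4.3.3): filterByExpr, TMM factors, 1 quasi-likelihood model of 4 group means over all libraries (14 residual degrees of freedom, common biological coefficient of variation 0.148), and a Benjamini-Hochberg adjusted p under 0.05 over the 12291 genes tested. Contrasts compared the lines within each sorted fraction, the fractions within each line, and their interaction. Alternatives were other scaling factors, no filter, DESeq2 1.42.0, limma 3.58.1 voom, the groups of the contrast alone, replicate blocks, and libraries left out. The 32 within-group pairs of replicates differed by more than sampling noise (chi-square per degree of freedom 1.77 to 10.7), and each library counted once. That excess does not show that the replicates were separate cultures. Same-numbered FaDu libraries deviated together (r = 0.178 to 0.447 across genes, 4 pairs). Some unlike-numbered ones did so as much, such as non-hypoxic replicate 2 with post-hypoxic replicate 5 (r = 0.23, against 0.178 with its own number). In SCC154 r was 0.0292 to 0.398 for the same number and -0.404 to 0.201 for unlike numbers. In FaDu r for unlike numbers ran from -0.433 to 0.242. Every same-number r was thus above 0, but the ranges overlapped in both lines. Whether the numbers pair the libraries is therefore not settled, and the main fit does not pair them.

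All 10 genes are named whatever their result. Of the pathway lists the counts were given, with up to 5 of the largest called genes per list and CCND1, CDKN1A, E2F1, CCNE1, EZH2, MTAP and CDKN2B-AS1 whatever their result; RRM2, TK1, KDM6B, AKTIP, TSPAN31 and the relations between genes were added after their values were seen. The genes and lists were chosen with earlier results of these data known. Intervals and floors of counts (3 counts) cover counting error only. Gene positions are from GENCODE release 29, and sequences from RefSeq (GRCh38.p14).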

Additional observations from a re-analysis of the deposited data

Results flagged for a closer look

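In 39 sets of 1 gene in 1 group, the highest or lowest library was compared with the spread of the rest (Dixon's gap, 95% level), and 4 stood apart. Chance flags about 1 in 20 groups. RBL1 in post-hypoxic SCC154 replicate 3 was at 110 CPM against 64.5 to 70.9 CPM in the others. Without this library the RBL1 and CDK4 differences between the post-hypoxic lines did not pass, but both also failed to pass with other libraries left out. RBL2 in non-hypoxic FaDu replicate 4 was at 40.8 CPM against 45.2 to 45.9 CPM. CCND3 in post-hypoxic FaDu replicate 5 was at 63.5 CPM against 84.0 to 88.9 CPM. CCND2 in non-hypoxic FaDu replicate 4 was at 0.536 CPM, which is 1 count, where the other libraries had 0. With 0 in the rest any single count is flagged, so that this flag tells nothing and the rate above does not cover it.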

How the results depend on the processing

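Under 28 other settings per comparison of the lines, the calls of CDKN2A, CDKN2B, RBL2 and CCND3 held in both fractions, and those of RBL1 and CDK4 in the non-hypoxic cells and of RB1 and CDK6 in the post-hypoxic cells held as well. In the post-hypoxic cells RBL1 and CDK4 also lost theirs with FaDu replicates 3 and 4 left out (adjusted p = 0.0619 and 0.0719, edgeR) and with non-hypoxic SCC154 replicate 1 and post-hypoxic SCC154 replicate 3 left out (0.0633 and 0.0823); the cause was not tested. With no filter 1 gene (CCND2) was called between the SCC154 fractions. Leaving out each library in turn left 6 to 6 and 6 to 8 of the 9 genes called between the lines, 0 to 1 within SCC154, and 0 within FaDu and for the interaction. Under the other scalings the median log2 fold change of all genes was at most 0.042. Over all genes, 93 were called within SCC154 in the main fit, 291 with no filter, 206 with DESeq2, 22 with the groups of the contrast alone, 39 with FaDu replicates 3 and 4 left out, 20 to 190 without single libraries, 243 with a replicate block shared across the lines and 1052 with one within each line. For the interaction the counts were 2, 51 with no filter, 18 with DESeq2 and 224 with the block within each line, and within FaDu 0, 10 with no filter and 2 with DESeq2. The replicate block changed no call of the 9 genes, but with it 15 pathway genes passed within SCC154 (4 higher, 11 lower) and 3 for the interaction (ARID4A, TK1 and CBX7).

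Signs turned only for differences that passed no test. With the block within each line, CCND3 turned to 0.013 in SCC154, 0.00833 in FaDu and 0.00471 for the interaction, and CDKN2B to -0.0475 for the interaction. With FaDu replicates 1 and 2 left out, CDKN2C between post-hypoxic lines turned to -0.0377, CDK6 in FaDu to -0.041 and the CCND3 interaction to 0.125; with FaDu replicates 3 and 4 left out, CDKN2C and CDK4 in FaDu turned to -0.0181 and -0.00282. With the pair of SCC154 libraries left out, RBL2 and CCND3 in SCC154 turned to -0.138 and 0.16, and the CCND3 interaction to 0.231; upper-quartile factors turned the latter to 0.00754. Leaving out single libraries gave CCND3 a range of -0.209 to 0.0652 in SCC154, -0.104 to 0.0162 in FaDu and -0.14 to 0.135 for the interaction. It gave RBL2 a range of -0.132 to 0.187 in SCC154 and -0.306 to 0.0147 for the interaction, RB1 in SCC154 one of -0.0427 to 0.188, CDKN2C one of -0.0404 to 0.195 between post-hypoxic lines and -0.0177 to 0.171 in FaDu, and CDK6 in FaDu one of -0.0569 to 0.104. Depth limits CCND2 most, where 1 CPM stands for about 2 counts.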
